A study of Mus musculus with 8 samples.

Results

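The Hox genes of the mouse were examined in RNA sequencing of the P3 cortex, where they are normally close to silent. All protein-coding genes whose symbol is Hox followed by a cluster letter from a to d and a number were taken, which gave 39 genes among the 48709 in the deposited count files. They lie in 4 clusters of mm10, with 11 genes in Hoxa (chromosome 6, 52155590 to 52260880), 10 in Hoxb (chromosome 11, 96194316 to 96368256), 9 in Hoxc (chromosome 15, 102921103 to 103036852) and 9 in Hoxd (chromosome 2, 74668310 to 74765142). The study compared 4 dcKO_hGFAP-Cre with 4 control samples, all from mice of the C57BL/6J background at postnatal day 3. The dcKO_hGFAP-Cre mice are BAF155 fl/fl; BAF170 fl/fl and carry Cre recombinase under a human GFAP promoter, which is active in progenitors of the dorsal telencephalon (dTel), so that cells outside that lineage keep both genes. By the methods the controls are BAF155 fl/+; BAF170 fl/+ with Cre, and thus share the driver and carry 1 floxed copy of each gene, whereas the labels call them wild type. The tissue is whole cortex, in which fewer cells of a type and less RNA per cell cannot be told apart.

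Hox genes encode homeodomain transcription factors that give cells along the head-to-tail axis their regional identity. Within a cluster the genes are ordered by the axial level at which they act, from the paralogue groups with low numbers, used in the hindbrain, to those with high numbers, used in the trunk and limbs. The telencephalon lies in front of the Hox domain, and there the clusters are kept off by Polycomb repression, which the trithorax proteins and the BAF (SWI/SNF) remodeling complex oppose. BAF155 and BAF170, encoded by Smarcc1 and Smarcc2, are scaffolding subunits of BAF. Hox proteins bind DNA together with cofactors of the Pbx and Meis families.

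The stretches just before the gene starts are shown for the 3 Hox genes with the most reads in the mutant, and for Evx2, the homeobox gene beside Hoxd13 that had more reads than any Hox gene there. They were taken from RefSeq (GRCm38.p6, the mm10 build), run 5′ to 3′ on the gene's strand and stop before the transcribed part. Capitals mark CG pairs, the bases that CpG islands are rich in. The windows are chr2:74704365-74704614 (plus strand) for Hoxd8, chr2:74697513-74697726 (plus) for Hoxd9, chr6:52204588-52204837 (minus) for Hoxa5 and chr2:74659558-74659807 (minus) for Evx2.
Hoxd8: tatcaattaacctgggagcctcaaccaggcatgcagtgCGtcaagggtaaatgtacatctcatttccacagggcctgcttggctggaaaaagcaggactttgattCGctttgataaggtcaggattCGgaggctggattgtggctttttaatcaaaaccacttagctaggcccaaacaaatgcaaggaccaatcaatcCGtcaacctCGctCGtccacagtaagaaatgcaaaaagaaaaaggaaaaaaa
Hoxd9: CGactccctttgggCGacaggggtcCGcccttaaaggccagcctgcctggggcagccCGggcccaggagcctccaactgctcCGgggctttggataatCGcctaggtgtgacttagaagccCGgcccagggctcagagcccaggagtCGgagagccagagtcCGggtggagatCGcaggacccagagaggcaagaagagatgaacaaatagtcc
Hoxa5: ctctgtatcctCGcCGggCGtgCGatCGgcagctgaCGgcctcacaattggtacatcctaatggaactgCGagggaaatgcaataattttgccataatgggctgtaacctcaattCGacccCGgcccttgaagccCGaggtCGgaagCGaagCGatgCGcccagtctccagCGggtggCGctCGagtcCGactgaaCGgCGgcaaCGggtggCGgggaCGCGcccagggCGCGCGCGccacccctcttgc
Evx2: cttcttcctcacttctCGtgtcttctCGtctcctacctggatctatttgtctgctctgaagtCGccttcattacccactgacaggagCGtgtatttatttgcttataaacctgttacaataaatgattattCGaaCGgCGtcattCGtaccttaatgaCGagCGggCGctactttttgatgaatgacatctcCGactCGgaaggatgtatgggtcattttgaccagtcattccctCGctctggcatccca

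These promoters differed widely in CG content. Hoxa5 had 28 CG pairs in the 250 bases before its RefSeq start, a number that 7.61% of the 32851 promoters in the table reached. Hoxd8, the Hox gene with the most reads, had 6, which 50.4% of promoters reached. The full 250-base window of Hoxd9 had 13 (31.5% of promoters) and that of Evx2 had 14 (29.4%). A window was held for 22 of the 39 Hox genes, 24 windows in all. Their CG pairs ranged from 2 to 35 with a median of 12.5, beside a median of 6 over all promoters. Of Hoxb only Hoxb1, Hoxb4 and Hoxb8 had a window, and of Hoxc only Hoxc4. This median and the motif counts below thus describe mainly Hoxa and Hoxd. Letters bound by Hox partners were searched on both strands, each motif counted on its own so that matches may overlap. TGATNNAT, a Pbx-Hox form, was in 4 of the 24 windows and in 7.68% of all promoters. The Meis letters TGACAG were in 2 windows and in 15.9% of all promoters, and TTTATNG, a Cdx form, was in 2 windows and in 9.81% of all promoters. Evx2 held all 3 motifs, and Hoxd8, Hoxd9 and Hoxa5 held none.

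The libraries held 21126713 to 31805395 counts in control and 22002784 to 32110285 in the mutant, so that 3 counts, taken as the floor, stood for 0.0905 to 0.148 CPM (counts scaled to the library's normalized size). The deleted genes were lower in every library labelled as mutant. Smarcc1 was at 159 ± 11.2 CPM (SD, n = 4) in control and at 81.1 ± 5.9 CPM (SD, n = 4) in dcKO_hGFAP-Cre (log2 fold change -0.97, edgeR's quasi-likelihood test, adjusted p = 5.44e-06). Smarcc2 was at 482 ± 14.7 and 283 ± 28.2 CPM (SD, n = 4 each; log2 fold change -0.77, edgeR, adjusted p = 2.28e-05). Of the 16525 genes that passed the filter on low counts, 3074 (18.6%) were higher and 3128 (18.9%) lower in the mutant at an adjusted p of 0.05. The cortical markers were present in every sample. Of 8 genes of excitatory cortical neurons, 5 were lower and none higher, with Emx1, Neurod6 and Slc17a7 at log2 fold changes of -2.13, -2.04 and -0.80 among them.

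The mutant cortex carried traces of Hox RNA from all 4 clusters, and the control cortex almost none. Summed over the 39 genes, the control samples held 2, 0, 4 and 3 reads (replicates 1 to 4) and the mutants 30, 28, 33 and 34. The groups did not overlap, and the mutants were close to each other. On the normalized scale the sum was 0.0822 CPM in control and 1.15 ± 0.107 CPM (SD, n = 4) in the mutant, a ratio of 12.8 with a 95% interval of 6.54 to 28.7 for counting error alone. Reads were sequenced on 3 lanes that each held both groups, and the sums were 2 against 58 reads on lane 5, 4 against 33 on lane 6 and 3 against 34 on lane 7.

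**Figure D1:**
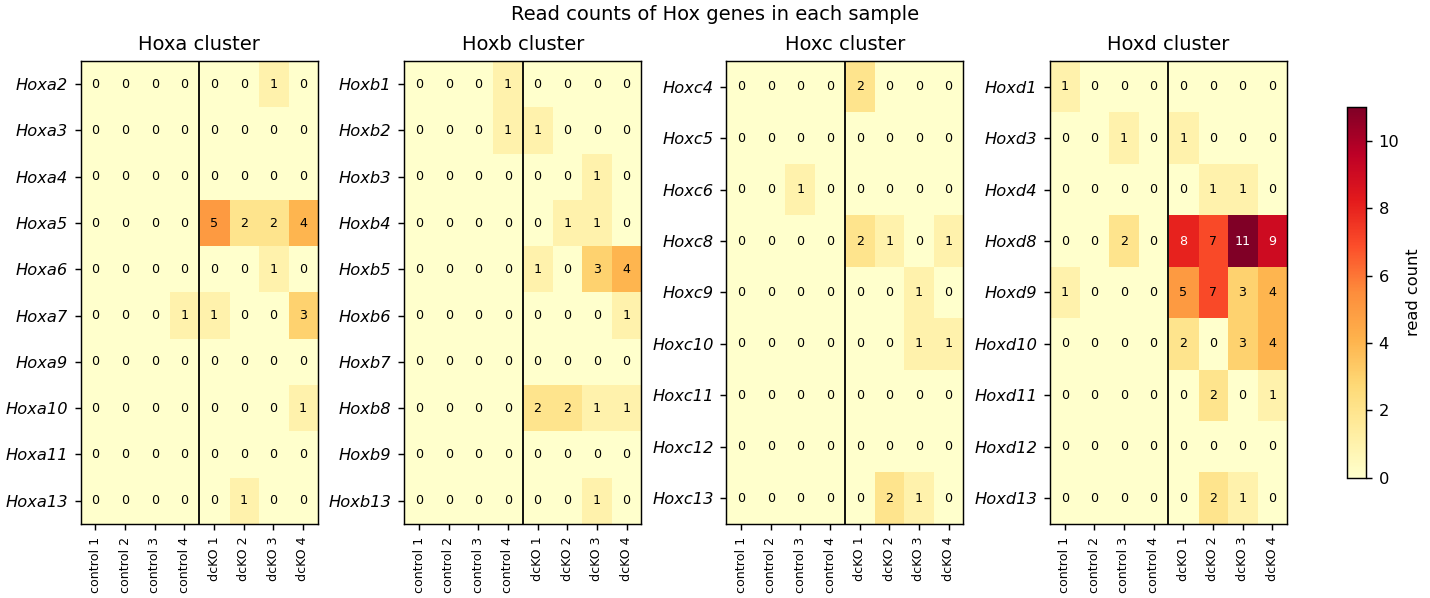
Read counts of Hox genes (rows, by cluster) in the 4 control and 4 dcKO_hGFAP-Cre samples (columns, divided by a line). Nearly all control entries are 0 and the highest is 2, whereas Hoxd8 reaches 11 in the mutant.

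**Figure D2:**
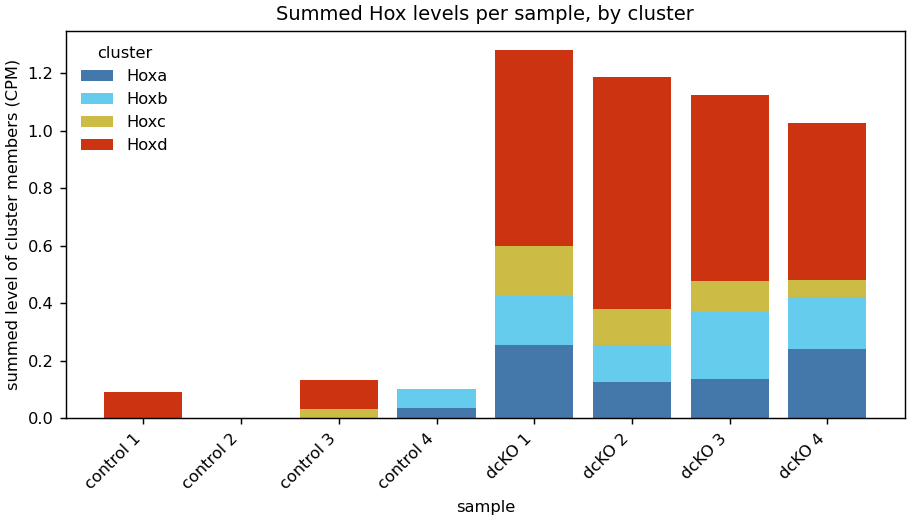
Summed CPM of the members of each cluster (colors, stacked) in each sample. The mutants reach 1.03 to 1.28 CPM, with Hoxd the largest share in each, and the controls stay at or under 0.133 CPM.

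Hoxd gave most of the reads. Its 9 genes had 5 reads in the 4 controls and 72 in the 4 mutants, 57.6% of all Hox reads in the mutant, at a ratio of 13.3 (95% counting interval 5.44 to 42.1). Hoxa had 1 against 21 reads (ratio 19.4, interval 3.12 to 801), Hoxb 2 against 20 (ratio 9.22, interval 2.24 to 81.4) and Hoxc 1 against 12 (ratio 11.1, interval 1.64 to 473). The lower end of each interval lay above 1, while the upper ends show how little a control sum of 1 or 2 reads fixes the ratio. In each of the 4 clusters the 4 mutants lay above all 4 controls, with the lowest mutant at 0.127 CPM for Hoxa, 0.127 for Hoxb, 0.0603 for Hoxc and 0.543 for Hoxd. The highest controls were at 0.0347, 0.0694, 0.0332 and 0.0995 CPM. Outside Hoxd this separation lies near the floor. The Hoxc mutants held 4, 3, 3 and 2 reads against 1 in control replicate 3, and the lowest Hoxa and Hoxb mutants held 3 reads.

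The share of Hox genes with mutant reads was set beside that of all protein-coding genes with as few reads in control. All 39 Hox genes had at most 2 reads over the 4 controls, and 31 had none. Of these 39, 25 (64.1%) had a read in some mutant, beside 24.7% of the 5029 protein-coding genes with as few control reads. A sum of more than 3 reads in the mutants was reached by 8 (20.5%), beside 7.16%. A read in every mutant was found for 4 (10.3%), beside 2.7%. The 5029 genes include 1221 olfactory and vomeronasal receptor genes with no read in any sample, which lowers their shares. Shares without these receptors were not computed. The 3 Hox genes with fewer reads in mutant than in control were Hoxb1, Hoxc6 and Hoxd1, each with 1 control read and none in the mutant. The summed level of all 1400 olfactory and vomeronasal receptor genes moved little. It was 4.11 to 6.00 CPM in control and 4.64 to 6.94 CPM in the mutant, ranges that overlapped, at a ratio of 1.22 (95% counting interval 1.08 to 1.37). This family was not silent in control: it held 503 reads there, beside 9 for the Hox genes. Of the 1400, 27 had more than 3 reads over the controls, and no Hox gene did. The ratio is thus not a like comparison for the Hox ratio.

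Within Hoxd the most reads fell on Hoxd8 and Hoxd9. Hoxd8, which acts in the trunk, had 0, 0, 2 and 0 reads in control replicates 1 to 4 and 8, 7, 11 and 9 in the mutants. The groups did not overlap, at 0.321 ± 0.0462 CPM (SD, n = 4) in the mutant and a ratio of 16.1 (95% counting interval 4.15 to 139). Hoxd9 had 1, 0, 0 and 0 reads in control and 5, 7, 3 and 4 in the mutants, again without overlap, at a ratio of 17.5 (interval 2.79 to 728). Hoxd10, of the limb and lumbar level, had no control read and 2, 0, 3 and 4 in the mutants. It was 2.77-fold higher when control is set to 3 reads over the group, but replicate 2 was at 0 like the controls. Its exons overlap those of the annotated gene Gm28309, so its reads are uncertain. Away from this stretch the counts were small on either side. Hoxd11 and Hoxd13 had 3 mutant reads each and Hoxd12 none, while Hoxd4 had 2, Hoxd3 1 in each group and Hoxd1 none in the mutant.

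**Figure D3:**
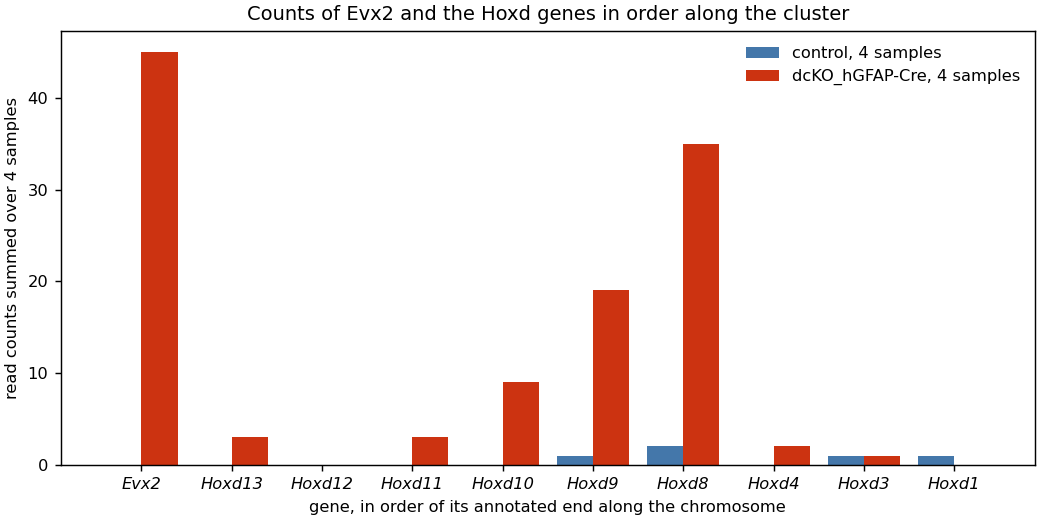
Read counts summed over 4 samples per group for Evx2 and the 9 Hoxd genes, in order of their annotated ends along chromosome 2. In the mutant (red) Evx2 has 45 reads, the count falls to 3 or fewer from Hoxd13 to Hoxd11, rises to 35 at Hoxd8 and falls again, and in control (blue) no gene exceeds 2.

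In Hoxa the most reads fell on 1 gene. Hoxa5, known from the neck and the respiratory tract, had no control read and 5, 2, 2 and 4 in the mutants. It was 4.00-fold higher with control set to 3 reads over the group. Every mutant was above every control. Hoxa7 had 1 read in control and 4 in the mutants, 3 of them in replicate 4, at a ratio of 3.69 whose counting interval of 0.365 to 182 includes 1; its exons overlap the antisense gene Hoxaas3. Hoxa2, Hoxa6, Hoxa10 and Hoxa13 had 1 mutant read each, and Hoxa3, Hoxa4, Hoxa9 and Hoxa11 were among those with none in any sample.

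In Hoxb and Hoxc the reads were spread thinly. Hoxb8 had no control read and 2, 2, 1 and 1 in the mutants, so each mutant but no control held at least 1 read. It was 1.84-fold higher against the floor of 3 reads over the control group. Hoxb5 had no control read and 1, 0, 3 and 4 in the mutants, 2.46-fold higher against the floor. Its replicate 2 was at 0, and an antisense gene, Hoxb5os, lies over its exons. Hoxb4 followed with 2 mutant reads, Hoxb2, Hoxb3, Hoxb6 and Hoxb13 had 1 each, and Hoxb7 and Hoxb9 had none in any sample. In Hoxc the highest was Hoxc8 with 2, 1, 0 and 1 mutant reads and no control read. Against the floor that is 1.23-fold, a value that leaves out counting error in so few mutant reads. Hoxc13 had 3 mutant reads, Hoxc4 and Hoxc10 2 each and Hoxc9 1, and Hoxc5, Hoxc11 and Hoxc12 had none in any sample. In all, 11 Hox genes were at 0 throughout, and for these a level under the floor cannot be told from none.

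Read by paralogue group, most mutant reads came from groups 5 and above. The 12 genes of groups 1 to 4, those of the hindbrain and neck, had 4 control and 10 mutant reads, a ratio of 2.31 whose counting interval of 0.665 to 10.1 includes 1. The 11 genes of groups 5 to 8 had 4 and 72 reads (ratio 16.6, interval 6.21 to 62.6), and the 16 genes of groups 9 to 13 had 1 and 43 (ratio 39.7, interval 6.75 to 1603). Group 8, with Hoxb8, Hoxc8 and Hoxd8, alone held 45 of the 125 mutant reads, with 35 from Hoxd8, and each of its 3 genes had more than 3. The intervals of the 3 stretches overlap, and the difference between them was not tested.

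Levels of different genes are compared per kb of exon. In the mutant Hoxd8 was at 0.117 ± 0.0168 CPM per kb (SD, n = 4), Evx2 at 0.101 ± 0.0433, Hoxd9 at 0.0858 ± 0.042, Hoxa5 at 0.0649 ± 0.0346 and Hoxd10 at 0.0424 ± 0.0294. Each neighbor in this order lay within 1 SD of the next.

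No Hox gene had enough reads for the test across genes as designed, since all 39 fell under the default filter of edgeR, and at this depth a difference in any 1 of them was not testable there. A fit that kept genes with at least 10 reads over the 8 samples, chosen after seeing the data, took in Hoxd8, Hoxd9 and Hoxa5. A gene with so few control reads can enter it only by its mutant reads, so the number that passed says nothing about the family. In that fit, where 14.6% of all 22060 genes were higher, the adjusted p by edgeR was 0.00143 for Hoxd8, 0.00878 for Hoxd9 and 0.0122 for Hoxa5. The rate of false calls among genes with so few reads is not known here, so these adjusted p are descriptive. With no filter at all, where 10.4% of 30608 genes were higher, 28 Hox genes could be fitted and 5 passed, Hoxd10 and Hoxb5 in addition; on simulated counts that fit made more false calls than the limit set for it, so its calls are not relied on here. Of the 28 Hox genes with a read, 4 (Hoxd8, Hoxd9, Hoxa5 and Hoxb8) had all mutants above all controls, an ordering that 10.5% of all genes with a read showed. That ordering fixes their exact two-sided permutation p at 0.0286, the smallest that 4 against 4 samples allow, so the p adds nothing to it.

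Beside the clusters, Evx2 showed the same split between the groups. It lies 8.75 kb from the start of Hoxd13, is transcribed away from it, and had no control read and 16, 7, 12 and 10 in the mutants. The groups did not overlap, at 0.423 ± 0.181 CPM (SD, n = 4) in the mutant and 13.8-fold higher with control set to 3 reads over the group. Evx1, its relative beside Hoxa13, had 1 mutant read. The genes that flank Hoxd on both sides are expressed in cortex and changed little or not detectably. Lnpk, beyond Evx2, was at 49.6 ± 6.82 CPM in control and 51.8 ± 10.3 CPM in the mutant (SD, n = 4 each; edgeR, adjusted p = 0.756). Mtx2, beyond Hoxd1, was at 60.2 ± 3.66 and 72.6 ± 7.63 CPM (SD, n = 4 each; log2 fold change 0.27, edgeR, adjusted p = 0.0336). Of the 46 other annotated genes inside the clusters, mostly noncoding RNAs, 36 had no read in any sample and 9 had more reads in the mutants than in control. Most of these 9 had a single mutant read. Gm11539, with 82 control and 108 mutant reads, overlapped between the groups. The share of all genes with more mutant reads was not computed, so the 9 do not show a rise across the clusters. The antisense RNAs Hoxd3os1 and Hotairm1 had 6 and 4 mutant reads and no control read. Skap1, within 100 kb of the Hoxb cluster, is expressed in both groups, and its level was 1.25 ± 0.102 CPM in control and 1.32 ± 0.563 CPM in the mutant (SD, n = 4 each; edgeR, adjusted p = 0.840).

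The cofactors of Hox proteins, unlike the Hox genes, are well expressed in cortex. Of the 9 Pbx, Meis and Pknox genes, all tested, 4 were higher, 2 lower and 3 did not pass, beside 18.6% higher and 18.9% lower over all genes, with a median log2 fold change of 0.20 beside 0.02 over all genes. Pbx3, a partner of Hox proteins on DNA, was at 17.0, 20.2, 20.2 and 14.2 CPM in control replicates 1 to 4 and at 66.03, 45.7, 56.0 and 43.9 CPM in the mutants. All mutants lay above all controls, at a log2 fold change of 1.56 ± 0.15 (SE; edgeR, adjusted p = 1.5e-05). Meis1, which joins Pbx and Hox proteins in trimers, was at 3.91, 3.79, 3.88 and 3.05 CPM in control and 12.6, 5.71, 11.3 and 8.84 CPM in the mutants. The groups were again separate, with mutant replicate 2 the closest to control, and the log2 fold change was 1.40 ± 0.22 (SE; edgeR, adjusted p = 0.000485). Meis2 rose from 219 ± 20.7 to 315 ± 47.3 CPM (SD, n = 4 each; log2 fold change 0.52, edgeR, adjusted p = 0.00269), and Pbx4 from 14.1 ± 2.35 to 18.3 ± 1.39 CPM (SD, n = 4 each; 0.37, edgeR, adjusted p = 0.0396). The Pbx4 call was lost without control replicate 2 or 3 or mutant replicate 1 or 2, with adjusted p between 0.0632 and 0.118.

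Of the members that fell, Pknox2, a Meis relative, went from 76.2 ± 6.95 to 58.7 ± 4.11 CPM (SD, n = 4 each; log2 fold change -0.38, edgeR, adjusted p = 0.00582). Pbx2, Meis3 and Pknox1 had log2 fold changes of 0.20, 0.05 and -0.23 and adjusted p of 0.0555, 0.673 and 0.0599 by edgeR. The summed level of the 9 genes overlapped between the groups, at 849 to 945 CPM in control and 841 to 976 CPM in the mutant.

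**Figure D4:**
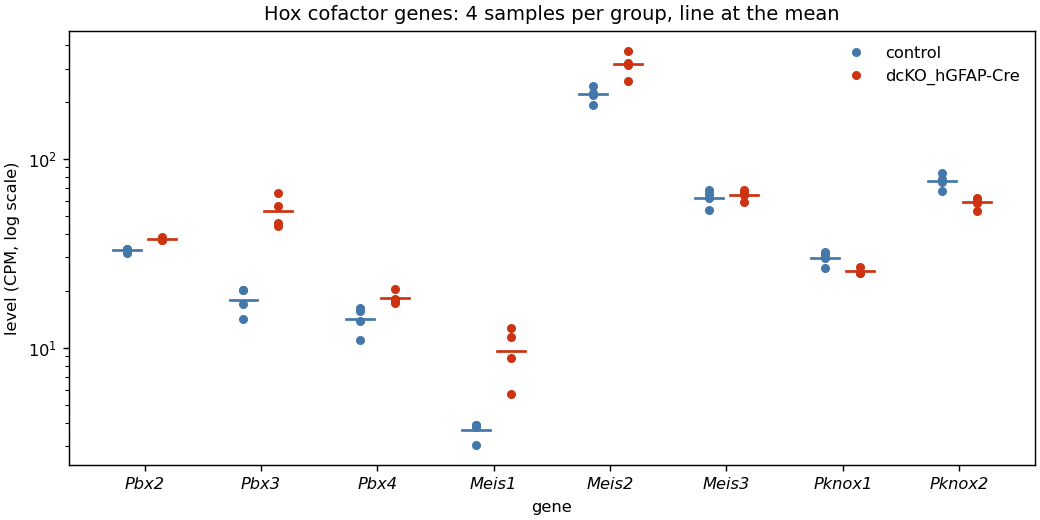
Level of Hox cofactor genes in CPM on a log axis, with 1 point per sample, 4 per group, and a line at the group mean. Pbx3 and Meis1 are separate between groups with the widest gaps, Pknox2 is lower in the mutant, and Meis3 overlaps.

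The Polycomb genes encode the proteins that keep Hox clusters off. Of 25 tested, 11 were higher, 2 lower and 12 did not pass, beside 18.6% higher and 18.9% lower over all genes, with a median log2 fold change of 0.27. Of PRC2, which writes the repressive H3K27 methyl mark, the enzyme gene Ezh2 (log2 fold change 0.33), Suz12 (0.27), Mtf2 (0.31), Phf19 (0.57), Rbbp4 (0.39) and Rbbp7 (0.20) rose. Of PRC1, Ring1 (0.56), Bmi1 (0.36), Pcgf1 (0.56), Pcgf6 (0.40) and Cbx8 (0.35) rose, and Pcgf3 (-0.21) and Phc2 (-0.27) fell. These adjusted p by edgeR ran from 0.00203 for Ring1 to 0.0475 for Pcgf3. Of 9 trithorax and H3K27 demethylase genes, Dpy30 was higher (log2 fold change 0.61), Men1 lower (-0.33) and 7 did not pass, with a median of 0.00.

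Of 20 genes that feed positional signals to Hox clusters, 14 were tested, 4 were higher and 2 lower, beside 18.6% and 18.9% over all genes. Gbx2, which marks the anterior hindbrain, had 0, 1, 1 and 0 control reads and 33, 46, 32 and 50 mutant reads, and its relative Gbx1 0, 7, 4 and 5 and 92, 111, 91 and 124. Both had all mutants above all controls, and with so few control reads they passed the filter through the mutants. The retinoic acid receptor gene Rarb rose from 5.86 ± 3.37 to 31.3 ± 16.5 CPM (SD, n = 4 each; log2 fold change 2.43, edgeR, adjusted p = 0.0115), and Nr2f1 by a log2 fold change of 0.49. Aldh1a3, which makes retinoic acid, and Cyp26b1, which breaks it down, fell by 2.06 and 0.89 on the log2 scale. Cdx2, a direct activator of trunk Hox genes, was under the filter, with no control read and 2, 3, 6 and 6 in the mutants. It was 5.23-fold higher with control set to 3 reads over the group. Of 6 ParaHox genes and other cluster relatives, Evx2 included, 2 were tested and both were higher, Gsx1 at a log2 fold change of 0.62 and Gsx2 at 1.17.

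Markers of other tissues were read in the same samples, and their part in the Hox signal was not tested. Of 14 hindbrain and spinal cord genes, where Hox genes are normally on, 5 were tested, 1 was higher (Ptf1a, with 1 control and 74 mutant reads, so that it passed the filter through the mutants) and 1 lower (Tph2, fell by 1.03 on the log2 scale), and their summed level overlapped, at 59.0 to 78.9 CPM in control and 54.5 to 63.4 CPM in the mutant. Among those under the filter, Atoh1 had no control read and 4, 3, 3 and 2 in the mutants, and En1 1, 0, 5 and 0 and 14, 8, 11 and 14. Slc6a5, of glycine neurons, had 1, 0, 0 and 0 control reads and 4, 1, 3 and 4 mutant reads, and Fev, of serotonin neurons, 1 mutant read. Pax2 had 3, 1, 2 and 3 control reads and 8, 8, 5 and 14 mutant reads. Of the 14, 3 were at 0 in all controls.

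Choroid plexus and meninges markers varied among the mutants. The Hox sum was 1.28, 1.19, 1.12 and 1.03 CPM in mutant replicates 1 to 4. The 8 choroid plexus markers summed to 617, 1180, 23.4 and 7.78 CPM in mutant replicates 1 to 4 and to 7.87 to 16.5 CPM in control. The Hox sums rest on 30, 28, 33 and 34 reads in these mutants, and a link between the Hox sum and this sum was not tested. Of the 8 choroid plexus genes 6 were tested and 1, Clic6, was higher (log2 fold change 3.59). The 8 fibroblast and meninges markers summed to 192, 95.2, 152 and 43.4 CPM in the same mutants and to 46.1 to 123 CPM in control, with Zic1 and Twist1 higher (log2 fold changes 0.98 and 2.67). Of 7 blood genes, 6 were tested and none passed, summing to 55.6 to 75.5 CPM in control and 40.6 to 133 CPM in the mutant. Of 6 endothelial and mural genes, Pecam1 and Flt1 were lower (-0.65 and -0.88), and of 5 microglial genes, Cx3cr1, Csf1r and Aif1 were higher (0.44, 0.65 and 1.40).

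**Figure D5:**
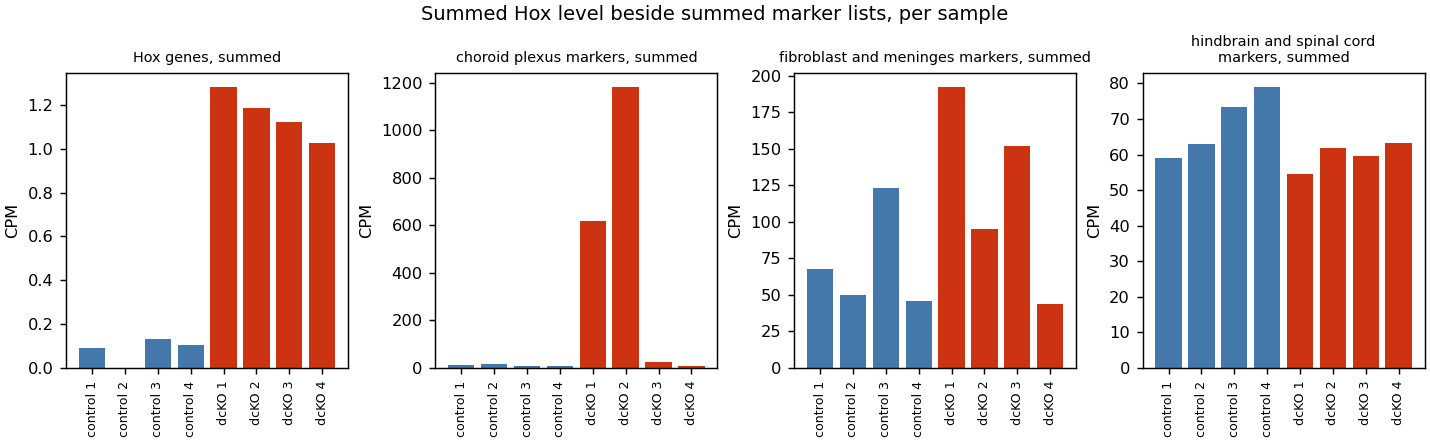
Summed CPM of the 39 Hox genes and of 3 marker lists in each sample, with control in blue, mutant in red and separate axes from 0. The Hox sum is 1.03 to 1.28 CPM in the 4 mutants and the choroid plexus sum 7.78 to 1180 CPM, and the hindbrain sum overlaps between groups.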

How the data were processed

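Per the labels, total RNA of P3 cortex was isolated with TRIZOL from 4 samples a group, and libraries were made with the TruSeq v2 kit. The authors used the mm10 build for alignment and featureCounts for counting, and deposited raw read counts, 1 file per sample, with no normalization. Aligner, annotation and strand setting are not given in the sources used here. Identifiers were matched to GENCODE M21 of the same build (48349 of 48709 genes, 30608 with a read); 16 of the 39 Hox genes share exon bases with another annotated gene, where counts are uncertain.

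Samples were grouped by their labels. Genes were tested with edgeR (version 4.0.16, R version 4.3.3): TMM, the default filter (minimum count 10), robust quasi-likelihood F test, Benjamini-Hochberg over all genes tested, threshold 0.05. The study used DESeq2 (version 1.42.0 here), run as an alternative. Each SE was computed from its fold change and F value. Nothing says that replicates of a group are separate litters, so p-values measure the spread between these samples. Ratios of summed counts carry exact (Clopper-Pearson) 95% intervals, and these and the floor of 3 counts cover counting error only. Where control had no read, it was set to 3 reads over the group. The fold given there leaves out counting error in the mutant reads and is not the lower end of an interval. Single genes were also compared by an exact permutation test over 70 arrangements.

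The 39 genes and all lists (Hox cofactors, Polycomb, trithorax, positional inputs, cluster relatives, and markers of cortex, hindbrain, choroid plexus, meninges, blood, vessels and microglia) were chosen with earlier results of these data known. Named are the 3 Hox genes per cluster with the most reads and, per list, the genes that passed; other Hox genes are named to account for their reads, and further low-count genes were chosen after their values were seen. A few genes of these lists are not reported here by name.

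The fits were tested on simulated counts, with a limit set on the share of false calls. The fit without a filter exceeded that limit, which was then kept for the other fits alone. After that, 15 combinations of quasi-likelihood form and minimum total count were tried, with their Hox calls in view. The form used for the main test, with at least 10 counts over the 8 samples, was kept because it reuses the number 10 and met the limit. Here 10 is a total over all samples, whereas the minimum count of the default filter applies within samples, so the filters differ. Whether the limit also holds among genes with as few reads as Hoxd8, Hoxd9 and Hoxa5 is not shown. Other alternatives were DESeq2's scale factors, library totals, at least 10 counts in every sample, replicate or lane as a block, and each sample left out.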

Additional observations from a re-analysis of the deposited data

Results flagged for a closer look

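In 44 checks of 4 samples each (Hox sums, the 8 Hox genes above the floor, Evx2, the cofactors and the deleted genes, in both groups), 7 had 1 sample far from the other 3, where chance alone gives about 1 in 20. Of these, 6 were controls in which 1 sample held the only reads of its group: the Hoxa sum and Hoxa7 in replicate 4 (0.0347 CPM each, the same read), the Hoxb sum in replicate 4 (0.0694 CPM), the Hoxc sum in replicate 3 (0.0332 CPM), Hoxd8 in replicate 3 (0.0663 CPM) and Hoxd9 in replicate 1 (0.0460 CPM). The other was Meis1, at 3.05 CPM in control replicate 4, below the other 3 controls. A group in which only 1 sample has reads is always flagged, so the rate of 1 in 20 does not apply to those 6.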

How the results depend on the processing

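No Hox gene was tested or called by edgeR with its default filter, with DESeq2's scale factors, library totals, a block, the stricter filter or any sample left out. Without a filter 28 were tested and 5 were higher (7 at an unadjusted p under 0.05), and DESeq2 gave 1 an adjusted p, Hoxd8, which was higher (3 at an unadjusted p under 0.05); no setting called a Hox gene lower. Since none was tested there, no median log2 fold change of tested Hox genes could be given. Over the 15 combinations tried after seeing the data, 2 to 6 Hox genes were higher and 0 lower. Hoxd8 and Hoxd9 passed in all 15, Hoxa5 in all 12 and Hoxd10 in all 9 that tested it, Hoxb5 in 5 of 9 and Hoxb8 in 2 of 6. Over all genes, 6083 to 6467 were called in either direction, of 20857 to 30608 tested. With at most 2 control reads, a Hox gene could scarcely be called lower in any setting. It reached a minimum total mainly by its mutant reads, so these numbers say nothing about the family. In the fit with at least 10 reads in all, 3 Hox genes were higher with the replicate block, and 2 to 3 with a sample left out. The numbers do not pair the samples: deviations of same-numbered samples correlated at 0.17, -0.068, 0.21 and -0.024. Under the replicate block 0 Hox genes were tested with the default filter, and Pbx4 missed the threshold (log2 fold change 0.38, adjusted p = 0.0578).

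The ratio of summed reads moved from 12.8 to between 10.2 and 16.2 with a sample left out for all Hox genes, from 9.22 to between 6.47 and 9.997 for Hoxb, and from 13.3 to between 9.49 and 23.3 for Hoxd. Without control replicate 3, which held 3 of the 5 Hoxd control reads, the Hoxd ratio was 23.3. Without Hoxa5 the Hoxa ratio was 7.38, and without Hoxb5 the Hoxb ratio was 5.53. No ratio could be given where the left-out control held the only reads. Meis3, not called, ran from -0.015 (without control replicate 2) to 0.093 with a sample left out. Pbx2 passed with library totals and Pknox1 with DESeq2 or without control replicate 1. Library totals raised the median change over all genes from 0.02 to 0.15 (log2) and the share of higher calls from 49.6% to 68.5%, and every Hox value rests on few reads.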

Other observations

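Hoxd8 ranked 12th by mutant reads among the 5029 protein-coding genes with at most 2 control reads, and several genes above it are also regulators of tissues outside the cortex. These were named after their values were seen. Ranking by mutant reads among genes with at most 2 control reads makes a split between the groups likely by the choice itself. How often such genes split was not computed, so the split is a description only. Gbx2 (161 mutant reads), Ptf1a (74), Evx2 (45), Mab21l2 (44), Vgll2 (42) and Pax3 (40) each had more reads than Hoxd8 (35), with reads in all 4 mutants and all mutants above all controls. Dsg1c (68), which is not such a regulator, showed the same split, so the genes above Hoxd8 are of mixed kinds. Retnla (131) and Defb11 (52) had as many or more, but in Retnla mutant replicate 2 had 0 and replicate 4 had 1, and in Defb11 replicates 3 and 4 had 0. Unlike these, Hoxd8 varied between 7 and 11 reads.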
